A study of Mus musculus with 24 samples.

Results

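The genes described here are 10 markers of macrophages, 5 that mark macrophages in general (Adgre1, Cd68, Csf1r, Mertk and Itgam) and 5 that mark long-lived resident macrophages of tissues (Mrc1, Cd163, Lyve1, Timd4 and Folr2), out of 19938 named genes measured. Each was found by its gene symbol in the array's annotation, and each had 1 probe set with that symbol alone, so no choice between probe sets arose. RNA came from whole epididymal white fat, the visceral depot beside the testis, of 24 male wild-type mice of the C57Bl/6 strain, with 6 mice in each of 4 groups. The mice were 11 weeks old at the start and ate a diet with 45% of its energy as fat for 11 weeks, and all were fasted for 4 h before the tissue was taken. The fat was either lard or menhaden fish oil, and the mice on each fat were either conventional, which carry a normal microbiota, or germ-free, which are raised without microbes. No group ate a low-fat diet, so every value below is from mice on a high-fat diet. Germ-free mice are bred and housed in isolators, apart from conventional mice, so bacterial status and colony cannot be told apart.

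Macrophages of fat come from more than one source. Some are resident cells that settle before or soon after birth, lie along vessels and often carry Lyve1, Timd4, Folr2 and Cd163, and others arise from blood monocytes that enter the depot as it expands and gather around dying adipocytes. Both kinds depend on signalling through the CSF1 receptor, and both carry pan-macrophage proteins such as F4/80, the product of Adgre1, and CD68.

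Each mouse gave 1 one-colour array, and the values are log2 signals, so that a difference of 1 is a doubling of the signal. Array medians lay from 7.09 to 7.20, and arrays of the same group correlated at 0.979 to 0.995, both over all probe sets. Mature adipocyte markers averaged 12.35 to 13.04 in every mouse. Lard-fed conventional mice 5 and 6 stood apart from mice 1 to 4 of their group, with adipocyte means of 12.35 and 12.37 against 12.76 to 12.83. Hepatocyte markers, which fat should hold at a low level, averaged 8.65 to 10.02 in all 6 germ-free mice fed fish oil, against 6.80 to 8.61 in the other 18 mice. Intestinal epithelium markers averaged 9.14 in lard-fed germ-free mouse 4 and 6.42 and 6.52 in mice 2 and 5, against 5.75 to 6.20 in the remaining mice. Where leaving these mice out, or holding the hepatocyte mean as a covariate, ended or turned the call of a marker, that value stands beside it. The covariate follows the groups closely: 70.1% of its variance lies between the fish oil-fed germ-free mice and the rest. It raised the standard errors by a median factor of 1.7 for diet in germ-free mice and 1.65 for status with fish oil, so a call lost with it can come from the wider error, and the part of liver RNA and that of the group cannot be told apart in that fit.

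The first question was how the fat of the diet changed the pan-macrophage genes. Adgre1, Cd68, Csf1r and Itgam were higher with lard than with fish oil by 0.65 to 1.76 log2, whether the mice were conventional or germ-free, and for each of these genes every lard-fed mouse lay above every fish oil-fed mouse of the same bacterial status. Since all cells of the depot were lysed as 1 sample, more macrophages and more RNA per macrophage cannot be told apart.

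Adgre1 encodes F4/80, the surface protein by which mouse macrophages are most often stained. In fish oil-fed conventional mice its signal ranged from 9.89 to 10.69 with a median of 10.17, and in lard-fed conventional mice from 11.02 to 12.43 with a median of 11.36. In fish oil-fed germ-free mice it ranged from 9.92 to 10.76 with a median of 10.41, and in lard-fed germ-free mice from 11.81 to 12.67 with a median of 12.14. All 12 lard-fed mice were thus above all 12 fish oil-fed mice, and the lard-fed germ-free mice were the highest group. The difference by diet was 1.37 ± 0.21 log2 (SE, n = 6 and 6, limma adjusted p = 2.32e-05) in conventional mice and 1.76 ± 0.21 (adjusted p = 9.51e-07) in germ-free mice. Within the lard-fed conventional group, mice 5 and 6 had 12.20 and 12.43, inside the range of the germ-free mice, while mice 1 to 4 had 11.02 to 11.37, below all of them. Without mice 5 and 6 the difference by diet in conventional mice was 1.01 (adjusted p = 0.000592).

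Cd68 encodes macrosialin, a glycoprotein of the lysosome and endosome of phagocytes. Its signal in fish oil-fed conventional mice was 11.03 to 12.11 with a median of 11.18, the lowest group, and in fish oil-fed germ-free mice 12.10 to 12.64 with a median of 12.37. With lard it was 12.33 to 13.24 (median 12.67) in conventional mice and 12.80 to 13.18 (median 13.02) in germ-free mice. The gap by diet was therefore wider in conventional mice, at 1.38 ± 0.17 (limma adjusted p = 2.24e-06), than in germ-free mice, at 0.65 ± 0.17 (adjusted p = 0.00382). The test of that difference itself, the interaction, gave 0.73 ± 0.24 with an adjusted p of 0.0713, which does not pass the threshold of 0.05 used for every call. It passed without fish oil-fed conventional mouse 1 (0.87, adjusted p = 0.0179), whose Cd68 of 12.11 was the highest of its group, and without mouse 2 of the same group (0.81, adjusted p = 0.0476). With the hepatocyte mean as a covariate the difference by diet in germ-free mice was 0.21 (adjusted p = 0.568) and the interaction 1.22 (adjusted p = 0.026).

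Csf1r encodes the receptor for CSF1 and IL-34, on which macrophages depend for survival. It rose from 10.17 to 10.83 (median 10.37) with fish oil to 10.95 to 11.93 (median 11.12) with lard in conventional mice, and from 10.23 to 10.85 (median 10.63) to 11.58 to 12.21 (median 11.91) in germ-free mice. These are differences of 0.88 ± 0.15 (limma adjusted p = 7.72e-05) and 1.29 ± 0.15 (adjusted p = 7.05e-07). Itgam encodes the alpha chain of the integrin CD11b, which monocytes, neutrophils and recruited macrophages carry more strongly than many resident cells. Its range was 8.51 to 8.99 (median 8.59) with fish oil and 9.29 to 10.52 (median 9.69) with lard in conventional mice, and 8.69 to 9.28 (median 9.00) against 9.73 to 10.77 (median 10.13) in germ-free mice. The difference by diet was 1.19 ± 0.19 (adjusted p = 2.87e-05) and 1.25 ± 0.19 (adjusted p = 1.2e-05). For both genes the order of the group medians was the same, from fish oil-fed conventional through fish oil-fed germ-free and lard-fed conventional to lard-fed germ-free mice, and the first pair in that order did not pass the threshold for either gene. The last pair passed for Csf1r and not for Itgam.

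**Figure D1:**
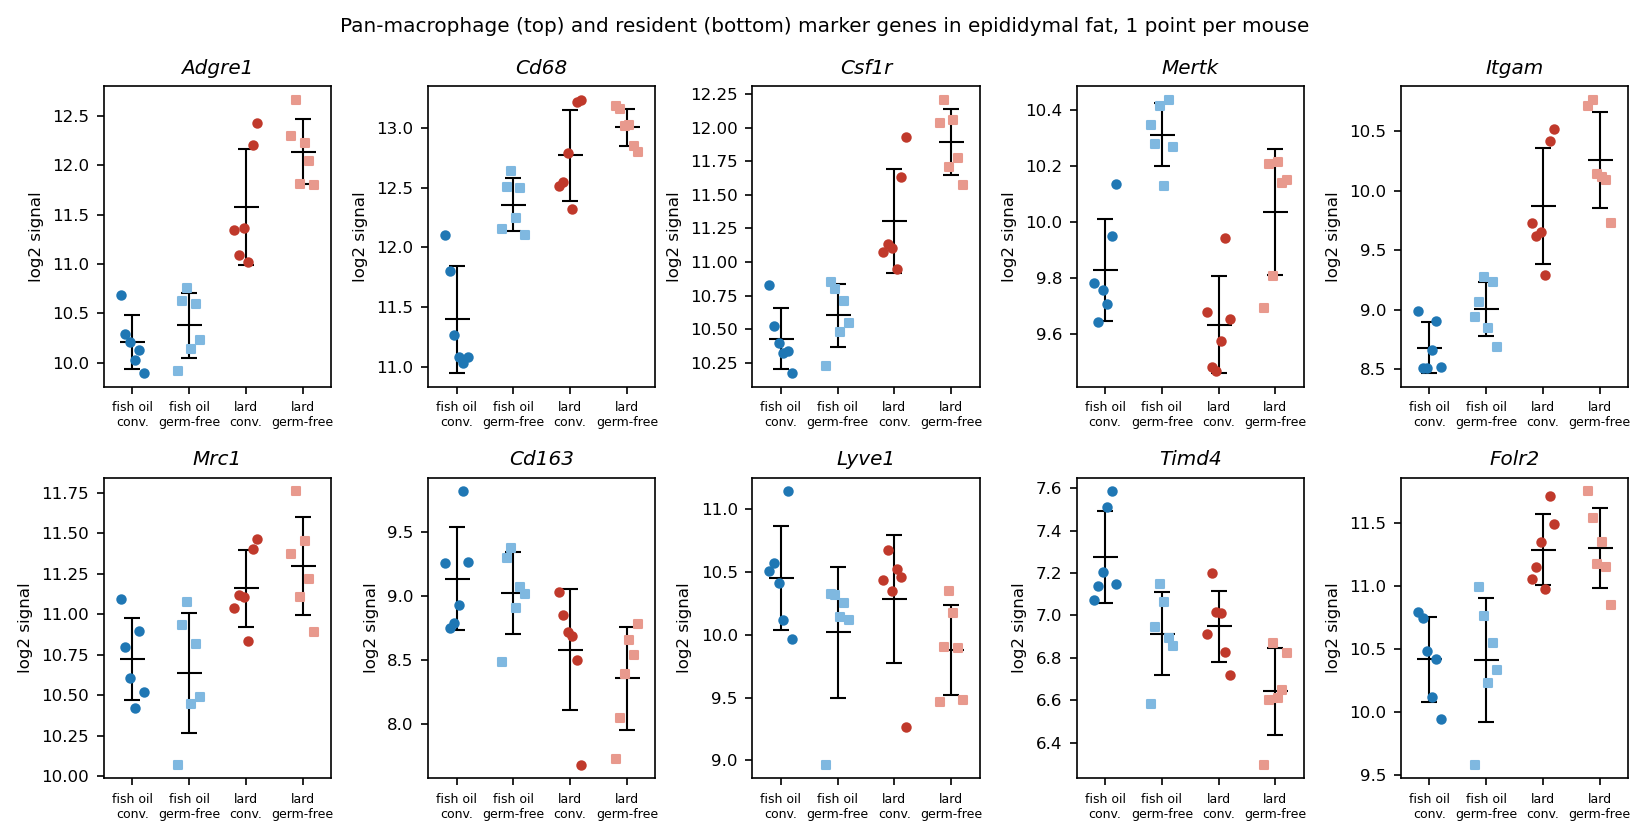
Log2 signal of the 10 marker genes, 1 point per mouse and bars for the mean and SD of each group, with the 4 groups on the horizontal axis and a panel for each gene, the pan-macrophage genes in the upper row and the resident genes in the lower row. Adgre1, Cd68, Csf1r and Itgam are higher in every lard-fed mouse than in every fish oil-fed mouse of the same bacterial status, and Cd163 and Timd4 are lower with lard on average, with groups that overlap.

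Mertk was not higher with lard in either kind of mice, unlike the other 4 pan-macrophage genes. It encodes a receptor tyrosine kinase through which macrophages bind and take up apoptotic cells. Its signal was 9.64 to 10.14 (median 9.77) in fish oil-fed and 9.47 to 9.94 (median 9.61) in lard-fed conventional mice, and 10.13 to 10.44 (median 10.31) in fish oil-fed and 9.69 to 10.22 (median 10.15) in lard-fed germ-free mice. The highest group was thus the fish oil-fed germ-free one, and on each diet the germ-free mice had the higher median. Mertk was lower in conventional than in germ-free mice on both diets, with differences of -0.40 ± 0.10 log2 with lard (limma adjusted p = 0.00657) and -0.48 ± 0.10 with fish oil (adjusted p = 0.0027), with 5 of 6 conventional mice below every germ-free mouse in each case. Lard-fed germ-free mice were lower than fish oil-fed germ-free mice (-0.28 ± 0.10, adjusted p = 0.0257), and in conventional mice the difference of -0.20 was not past the threshold (adjusted p = 0.145, 95% confidence interval -0.40 to 0.01) and passed with the hepatocyte mean as a covariate (-0.24, 0.0447). The diet call in germ-free mice ended on leaving out fish oil-fed mouse 3 (-0.26, adjusted p = 0.0521) or mouse 5 (-0.25, 0.0558), or lard-fed mouse 1 (-0.21, 0.0798) or mouse 3 (-0.23, 0.0664), and when each array was centred on its median (-0.21, 0.0898). With the hepatocyte mean as a covariate the difference by diet in germ-free mice was 0.06 (adjusted p = 0.784), and that by status with fish oil was -0.16 (adjusted p = 0.483). The status call with lard ended with germ-free mice 2, 4 and 5 left out (-0.25, adjusted p = 0.29).

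By diet the resident genes fell into a pair that followed most of the pan-macrophage genes and a trio that did not. Folr2 and Mrc1 were higher with lard in both kinds of mice. Cd163 and Timd4 were lower with lard in both, and Lyve1 did not pass the threshold in any comparison.

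Folr2 encodes folate receptor beta, a surface protein of resident macrophages in several tissues. Its signal was 9.94 to 10.80 (median 10.46) with fish oil and 10.98 to 11.71 (median 11.25) with lard in conventional mice, with no overlap. In germ-free mice it was 9.58 to 11.00 (median 10.44) with fish oil and 10.85 to 11.75 (median 11.26) with lard, and 5 of 6 lard-fed mice were above every fish oil-fed mouse. The differences were 0.87 ± 0.19 (limma adjusted p = 0.00117) and 0.89 ± 0.19 (adjusted p = 0.000651). Bacterial status gave differences of -0.01 with lard and 0.01 with fish oil, with 95% confidence intervals of -0.41 to 0.39 and -0.39 to 0.41. With the hepatocyte mean as a covariate the difference by diet in germ-free mice was 0.35 (adjusted p = 0.379).

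Mrc1 encodes CD206, the mannose receptor, which is used in fat to mark resident and alternatively activated macrophages. It lay at 10.42 to 11.09 (median 10.70) with fish oil and 10.83 to 11.46 (median 11.11) with lard in conventional mice, and at 10.07 to 11.07 (median 10.65) against 10.89 to 11.76 (median 11.29) in germ-free mice. The groups overlapped on both sides, and the rises, of 0.44 ± 0.16 (limma adjusted p = 0.0367) and 0.66 ± 0.16 (adjusted p = 0.00156), were smaller than those of Adgre1. In conventional mice the call ended on leaving out lard-fed mouse 5 (0.39, adjusted p = 0.0868) or mouse 6 (0.38, 0.0949), or fish oil-fed mouse 3 (0.41, 0.0687), mouse 4 (0.38, 0.0935) or mouse 6 (0.40, 0.0799). Without lard-fed mice 5 and 6 together the difference was 0.30 (adjusted p = 0.237). In germ-free mice the difference was 0.39 (adjusted p = 0.258) with the hepatocyte covariate and 0.48 (adjusted p = 0.0584) without lard-fed mice 2, 4 and 5.

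Cd163 encodes the scavenger receptor for haemoglobin bound to haptoglobin. It was 8.75 to 9.82 (median 9.09) with fish oil and 7.68 to 9.03 (median 8.70) with lard in conventional mice, and 8.48 to 9.38 (median 9.04) with fish oil and 7.72 to 8.78 (median 8.46) with lard in germ-free mice. The lowest mice were lard-fed conventional mouse 6 (7.68) and lard-fed germ-free mice 1 and 2 (7.72 and 8.04). The falls were -0.56 ± 0.21 in conventional mice (limma adjusted p = 0.0497) and -0.67 ± 0.21 in germ-free mice (adjusted p = 0.0127). The first of these lies at the threshold: leaving out single mice ended the call in 16 of 24 cases, and the value ran from -0.65 to -0.38. Of the mice compared, these were fish oil-fed mice 1, 4, 5 and 6 (-0.53, -0.60, -0.42 and -0.53) and lard-fed mice 3, 4, 5 and 6 (-0.58, -0.58, -0.54 and -0.38), and the other 8 were germ-free mice, which enter through the shared estimate of the spread. Without lard-fed conventional mice 5 and 6 it was -0.31 (adjusted p = 0.318). This call also ended with the hepatocyte covariate (-0.57, adjusted p = 0.0502) and with array weights (-0.40, 0.105). With the value still at -0.56, it ended in a fit to the compared groups alone (adjusted p = 0.0719) and with trend and robust priors (0.0593). A block for mouse number (0.0732) and the mean of a gene's probe sets (0.05) ended it as well. Dropping germ-free mice 2, 4 and 5 of the lard diet ended it too (-0.56, adjusted p = 0.0584). In germ-free mice the difference with the hepatocyte covariate was -0.55 (adjusted p = 0.249).

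Timd4 encodes TIM-4, a receptor for phosphatidylserine on dying cells that marks resident macrophages maintained without input from monocytes. Its signal was low on these arrays, at the 39th percentile of gene means, where changes of signal are compressed. It was 7.07 to 7.59 (median 7.18) with fish oil and 6.72 to 7.20 (median 6.96) with lard in conventional mice, and 6.58 to 7.15 (median 6.92) against 6.30 to 6.87 (median 6.63) in germ-free mice. The fish oil-fed conventional mice were the highest group and the lard-fed germ-free mice the lowest. Timd4 fell with lard, with differences of -0.33 ± 0.11 in conventional mice (limma adjusted p = 0.0219) and -0.27 ± 0.11 in germ-free mice (adjusted p = 0.0408), and was 0.36 ± 0.11 higher in conventional than in germ-free mice with fish oil (adjusted p = 0.0284). With lard the difference by status was 0.31 (adjusted p = 0.0539), and it passed once conventional mice 5 and 6 were dropped (0.39, adjusted p = 0.0151).

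All 3 calls for Timd4 depended on single mice. In conventional mice the diet call ended without fish oil-fed mouse 4 (-0.28, adjusted p = 0.0631) or mouse 5 (-0.27, 0.0674), or lard-fed mouse 5 (-0.30, 0.0508) or mouse 6 (-0.28, 0.0628), and it was -0.24 (0.158) without both of the latter. In germ-free mice it ended without fish oil-fed mouse 2, 3, 4 or 5 (adjusted p = 0.0614, 0.0996, 0.0891 and 0.0555) or lard-fed mouse 1, 2, 4 or 5 (adjusted p = 0.117, 0.0698, 0.0638 and 0.0588), with values of -0.28 to -0.20. It also ended there when each array was centred on its median (-0.21, adjusted p = 0.107), with repeated quantile normalization (-0.20, 0.118), with array weights (-0.22, 0.0713) and with lard-fed mice 2, 4 and 5 left out (-0.25, 0.193). Array weights ended the conventional call too (-0.25, 0.0706). The status call with fish oil ended without conventional mouse 4 or 5 (adjusted p = 0.0697 and 0.0808) or germ-free mouse 1, 5 or 6 (adjusted p = 0.0759, 0.0518 and 0.0567), and with the hepatocyte covariate it was 0.16 (adjusted p = 0.58). The status difference with lard passed without fish oil-fed conventional mouse 5, fish oil-fed germ-free mouse 1 or 3, lard-fed conventional mouse 5 or 6, or lard-fed germ-free mouse 3 or 6 (0.31 to 0.35, adjusted p from 0.0241 to 0.0498), and with array weights (0.0101), the mouse number as a block (0.0347) and the hepatocyte covariate (0.0287).

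Lyve1 encodes a hyaluronan receptor of perivascular resident macrophages that lymphatic endothelium carries as well. It lay at 9.96 to 11.14 (median 10.46) and 9.26 to 10.67 (median 10.45) in conventional mice fed fish oil and lard, and at 8.97 to 10.32 (median 10.20) and 9.46 to 10.35 (median 9.90) in germ-free mice. The difference by diet was -0.17 in conventional mice (limma adjusted p = 0.646, 95% confidence interval -0.67 to 0.33) and -0.14 in germ-free mice (adjusted p = 0.634, -0.64 to 0.35). These intervals leave out a rise as large as that of Adgre1. By status it was 0.41 with lard and 0.43 with fish oil (adjusted p = 0.29 and 0.263). The difference with lard passed without lard-fed conventional mouse 6 (0.61, adjusted p = 0.0458). Of 7 other lymphatic endothelium genes, 1 was lower with lard in conventional mice (Foxc2, -0.47) and 2 in germ-free mice (Prox1, -0.28, and Foxc2, -0.24). Those counts are near the shares of all genes that were lower, 15.6% and 27.1%. By status 0 of the 7 passed in limma, where 1 with lard and 3 with fish oil had an unadjusted p under 0.05.

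Counted over the set, 8 of the 10 genes passed in conventional mice by diet, against 31.0% of all genes tested. Of these, 6 were higher with lard (15.4% of all genes) and 2 lower (15.6%), and for 5 of 10 the groups did not overlap (14.6% of all genes). In germ-free mice 9 of 10 passed, against 47.5% of all genes, with 6 higher (20.4%) and 3 lower (27.1%), and for 4 the groups did not overlap (24.5%). The background is thus high, most of all in germ-free mice, and the set stands above it mainly through genes that were higher. The median change of all genes was -0.04 and -0.08 in these comparisons, and that of the 10 markers 0.65 in both. When each array was centred on its median, the calls over all genes in germ-free mice turned from 4072 higher and 5396 lower to 4808 and 3313, and those of the markers were 6 higher and 1 lower.

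**Figure D2:**
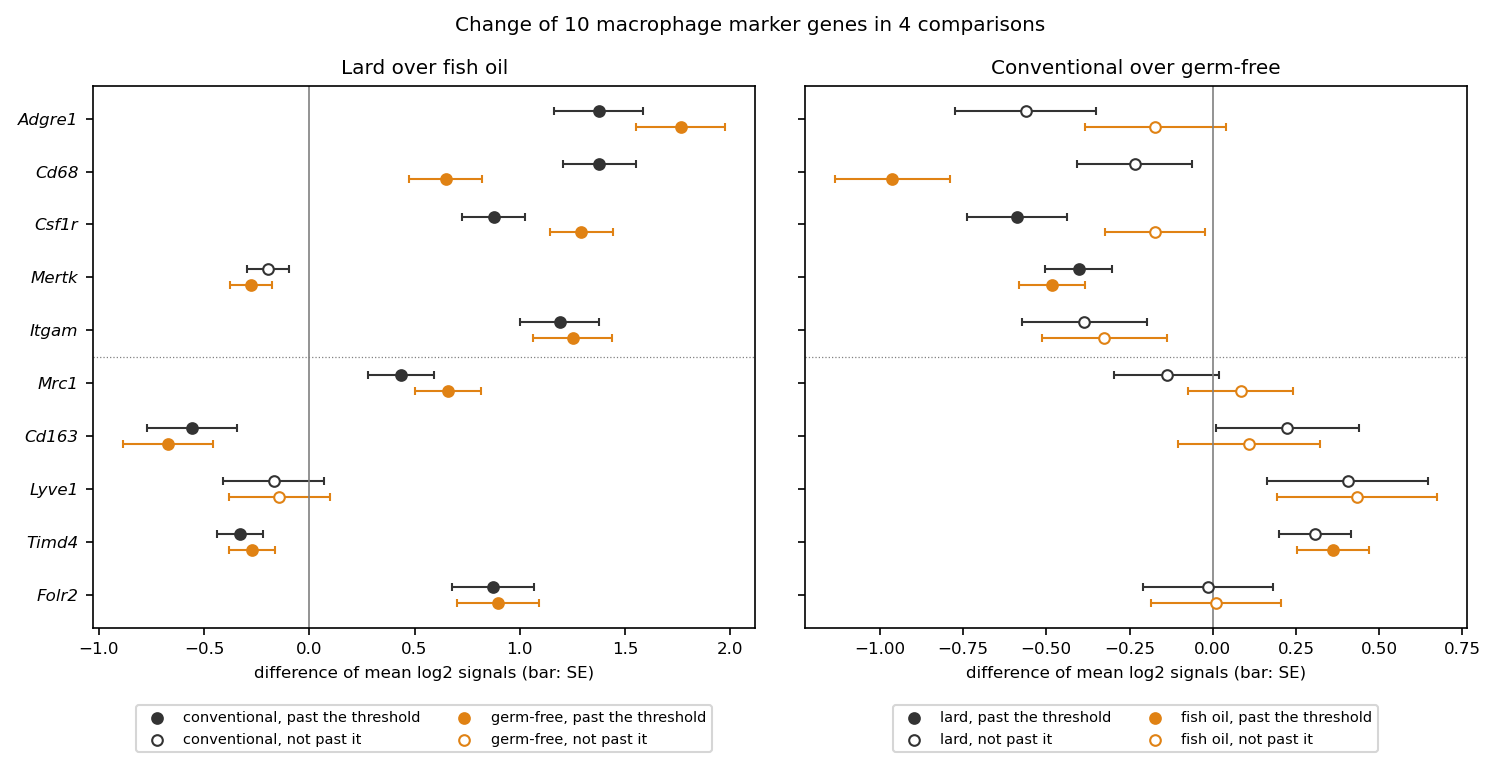
Difference of mean log2 signal, with its standard error as a bar, for lard over fish oil (left) and conventional over germ-free (right). Colours mark the level of the other factor, and filled points passed the threshold of an adjusted p of 0.05. On the left, Adgre1, Cd68, Csf1r, Itgam, Mrc1 and Folr2 lie to the right of 0 and Cd163 and Timd4 to the left in both kinds of mice. On the right, Mertk is filled and below 0 on both diets.

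The second question was whether bacterial status changed these genes. With lard, 2 of 10 passed, near the share of 16.3% of all genes, both lower in conventional mice (7.48% of all genes were lower), and 0 were higher (8.77%). These were Mertk, given above, and Csf1r, at -0.59 ± 0.15 (limma adjusted p = 0.00826), with 4 of 6 conventional mice below every germ-free mouse. Csf1r did not pass with germ-free mice 2, 4 and 5 left out (-0.47, adjusted p = 0.193). With fish oil, 3 of 10 passed against 12.4% of all genes: Cd68 and Mertk lower (5.21% of all genes were lower) and Timd4 higher in conventional mice (7.15% higher). Cd68 differed by -0.96 ± 0.17 (adjusted p = 0.000966), and 5 of 6 conventional mice were below every germ-free mouse. No marker had groups that did not overlap by status, against 4.15% of all genes with lard and 7.03% with fish oil. Centring each array moved the calls over all genes with fish oil from 1425 higher and 1039 lower to 2757 and 701, and the count of markers stayed at 3.

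The comparison by status with lard turned on conventional mice 5 and 6. Without mouse 5 Adgre1 was lower in conventional than in germ-free mice (-0.69, adjusted p = 0.024), as it was without mouse 6 (-0.73, adjusted p = 0.00782), while with all 6 mice it was -0.56 (adjusted p = 0.0727). It also passed with repeated quantile normalization (-0.61, 0.0449), with dim genes left out (-0.56, 0.0492) and with array weights (-0.70, 0.0046). Over the alternatives its adjusted p ran from 0.00027 to 0.526. Itgam passed without mouse 6 (-0.52, adjusted p = 0.0409) and with array weights (-0.47, 0.0294). Without both mice 6 of 10 genes passed in place of 2, while 0 passed without germ-free mice 2, 4 and 5. The calls over all genes moved too, from 1749 higher and 1491 lower to 2574 and 2505 without mice 5 and 6. Without germ-free mice 2, 4 and 5 they were 83 and 94. Without mice 5 and 6 Adgre1 was at -0.93 (adjusted p = 0.00027), Itgam at -0.69 (0.00307) and Cd68 at -0.46 (0.0479). Mice 5 and 6 had the highest Adgre1, Cd68, Csf1r and Itgam of their group, so leaving them out had to lower the group's mean. Lard-fed germ-free mice 1 and 2 likewise had the highest Adgre1, Cd68 and Itgam of their group. No fit left out both of those, so the stronger calls come from an exclusion on the conventional side alone. The interaction of diet and status passed for 0 of 10 genes against 7.2% of all genes, and 1 of 10, Cd68, had an unadjusted p under 0.05 in limma (0.00649). Centring moved its calls over all genes from 561 higher and 874 lower to 312 and 1688. Without mice 5 and 6 the interaction passed for Adgre1 (-0.76, adjusted p = 0.0319) and Csf1r (-0.66, 0.0148). Over all genes it then passed for 1199 higher and 1511 lower.

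Set against each other, the 2 kinds of marker differed by diet. Each gene was centred on its mean over the 24 mice, so that genes of unlike level could be averaged, and the mean of the 5 resident genes minus that of the 5 pan-macrophage genes was taken in each mouse. Fish oil-fed conventional mice had the highest values, 0.51 to 1.15 with a median of 0.70, and lard-fed germ-free mice the lowest, -1.02 to -0.47 with a median of -0.64. Fish oil-fed germ-free mice lay at -0.33 to 0.28 (median 0.22) and lard-fed conventional mice at -0.99 to 0.27 (median 0.08). In the latter group mice 1 to 4 had 0.07 to 0.27, and mice 5 and 6 had -0.46 and -0.99, of which the second lies in the range of the lard-fed germ-free mice and the first just above it. The difference by diet was -0.87 in conventional and -0.84 in germ-free mice, and that by status 0.59 with lard and 0.62 with fish oil. The difference by diet came from the pan-macrophage genes, whose mean rose with lard by 0.92 and 0.94, while that of the resident genes differed by 0.05 and 0.09. Both kinds contributed by status. The resident mean differed by 0.16 with lard and 0.20 with fish oil, and the pan-macrophage mean by -0.43 and -0.42.

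The resident mean hides the split among its genes. The pair and the trio were formed from the diet results above, so their means restate that split and do not test it. The mean of Folr2 and Mrc1 went from medians of -0.30 and -0.36 with fish oil to 0.28 and 0.39 with lard in conventional and germ-free mice. The mean of Cd163, Lyve1 and Timd4 went from 0.21 and 0.10 to 0.09 and -0.27. The lowest values of that trio were in lard-fed germ-free mouse 1 (-0.80), lard-fed conventional mouse 6 (-0.74) and fish oil-fed germ-free mouse 1 (-0.62), and the highest in fish oil-fed conventional mouse 5 (0.89). The nearest of all pairs of the 10 genes over the 24 mice were Csf1r with Itgam and Mrc1 with Folr2, whose centred values differed by a root mean square of 0.22 and 0.24 log2. The farthest pair was Adgre1 with Cd163, at 1.28. Cd163 minus Adgre1, in centred values, ran from 0.76 to 2.00 in fish oil-fed and from -2.45 to 0.06 in lard-fed conventional mice, and from 0.77 to 1.09 in fish oil-fed and -2.32 to -0.73 in lard-fed germ-free mice, with no overlap by diet. Adgre1 alone already had no overlap by diet, and the pair was picked as the farthest, so this gap is no test. Nor is it particular to Cd163: Timd4, Lyve1, Mrc1 and Mertk minus Adgre1 did not overlap by diet either. Folr2 minus Adgre1 overlapped in conventional mice.

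**Figure D3:**
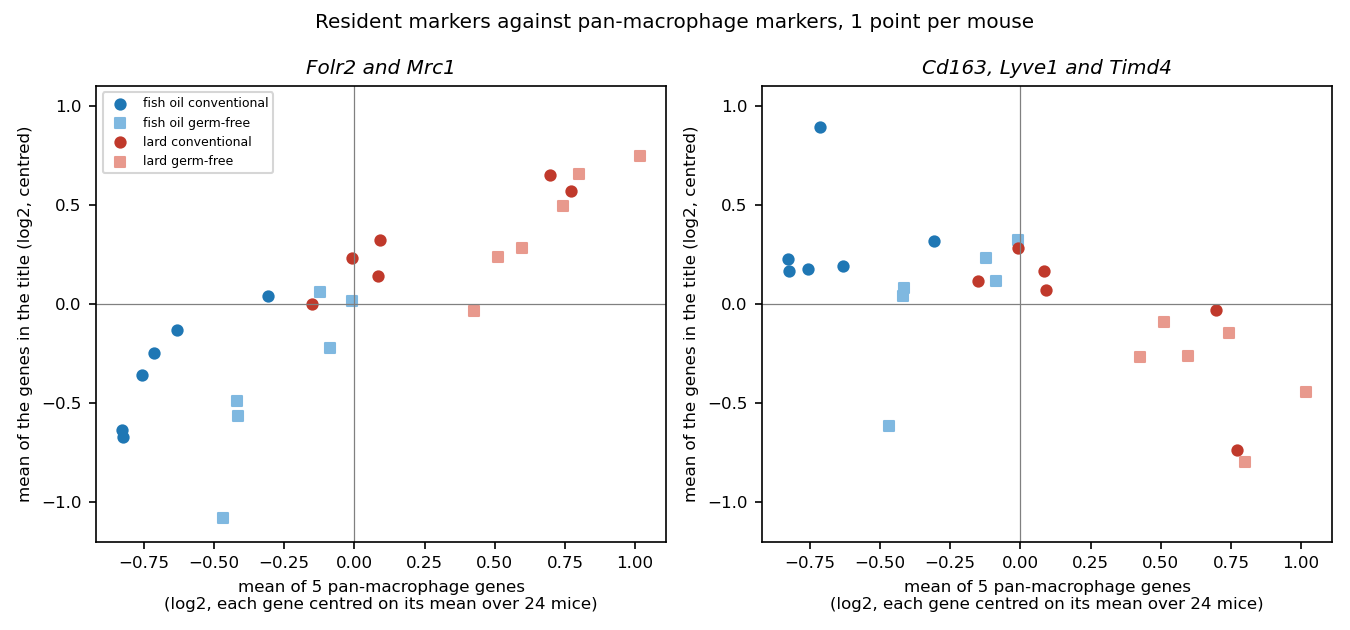
Mean of resident genes (vertical axis) against the mean of the 5 pan-macrophage genes (horizontal axis), both in log2 with each gene centred on its mean over 24 mice, 1 point per mouse; the left panel shows Folr2 and Mrc1, the right panel Cd163, Lyve1 and Timd4. On the left both lard-fed groups had higher means on both axes than both fish oil-fed groups. The fish oil-fed conventional and germ-free groups had pan-macrophage means of -0.68 and -0.25, and Folr2 and Mrc1 means of -0.33 and -0.38. Fish oil-fed germ-free mouse 1 was the lowest for Folr2 and Mrc1 (-1.08). On the right the lard-fed germ-free mice and lard-fed conventional mouse 6 lie at the lower right. The genes were divided between the panels by their diet results in these same mice.

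The promoters of all 4 genes with a window that were higher with lard in both kinds of mice (Cd68, Itgam, Mrc1 and Folr2) and of the 2 that were lower (Cd163 and Timd4) are shown, so that genes that moved alike can be compared. They were searched for the core of purines bound by PU.1, the macrophage factor encoded by Spi1, among other motifs. Any link between a motif and a change was not tested. The sequences are the 250 bases before the RefSeq start, read along the gene's strand in GRCm38.p6, with GAGGAA or its reverse complement TTCCTC in capitals.
Cd68, chr11:69666171-69666420, minus strand: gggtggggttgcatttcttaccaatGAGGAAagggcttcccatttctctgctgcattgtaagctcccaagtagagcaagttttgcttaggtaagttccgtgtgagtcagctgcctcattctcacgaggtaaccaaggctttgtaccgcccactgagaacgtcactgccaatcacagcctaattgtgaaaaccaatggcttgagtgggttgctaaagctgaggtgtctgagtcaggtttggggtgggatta
Itgam, chr7:128062390-128062639, plus strand: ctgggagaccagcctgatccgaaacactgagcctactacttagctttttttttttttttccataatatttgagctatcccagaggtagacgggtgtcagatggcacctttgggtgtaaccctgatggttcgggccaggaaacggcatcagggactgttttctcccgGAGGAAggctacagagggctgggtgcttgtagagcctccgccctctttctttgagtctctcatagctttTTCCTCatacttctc
Mrc1, chr2:14229164-14229413, plus strand: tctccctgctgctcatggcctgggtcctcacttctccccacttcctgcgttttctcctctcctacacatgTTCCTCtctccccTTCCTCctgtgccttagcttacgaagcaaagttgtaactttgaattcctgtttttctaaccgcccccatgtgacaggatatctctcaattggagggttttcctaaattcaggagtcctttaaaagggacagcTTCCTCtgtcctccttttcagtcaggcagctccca
Folr2, window upstream, chr7:101857191-101857440, minus strand: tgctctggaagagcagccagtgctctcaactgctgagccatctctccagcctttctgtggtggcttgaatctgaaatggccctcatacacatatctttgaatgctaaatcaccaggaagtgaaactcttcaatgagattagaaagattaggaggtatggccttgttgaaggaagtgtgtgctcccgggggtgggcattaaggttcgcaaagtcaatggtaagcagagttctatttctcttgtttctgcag
Folr2, window downstream, chr7:101845332-101845581, minus strand: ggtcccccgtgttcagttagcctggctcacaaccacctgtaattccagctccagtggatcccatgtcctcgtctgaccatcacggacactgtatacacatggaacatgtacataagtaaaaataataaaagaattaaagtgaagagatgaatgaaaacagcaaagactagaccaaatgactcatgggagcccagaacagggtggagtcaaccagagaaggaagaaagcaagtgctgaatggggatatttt
Cd163, chr6:124304401-124304650, plus strand: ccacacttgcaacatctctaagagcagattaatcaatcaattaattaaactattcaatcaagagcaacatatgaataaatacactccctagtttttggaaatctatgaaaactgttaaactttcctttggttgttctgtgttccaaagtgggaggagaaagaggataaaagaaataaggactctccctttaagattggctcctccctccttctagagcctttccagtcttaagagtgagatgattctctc
Timd4, chr11:46810549-46810798, plus strand: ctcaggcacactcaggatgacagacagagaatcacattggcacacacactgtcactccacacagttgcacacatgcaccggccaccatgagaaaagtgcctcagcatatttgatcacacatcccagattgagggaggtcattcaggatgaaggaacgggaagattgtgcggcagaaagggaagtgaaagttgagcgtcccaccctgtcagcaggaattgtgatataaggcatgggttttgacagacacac
GAGGAA was found 225 bases before the start of Cd68, 84 and 15 bases before that of Itgam, and 180, 167 and 35 bases before that of Mrc1. It was not in the windows of Mertk, Cd163, Timd4 or Folr2, and 23.3% of 32851 windows in the table held it. RefSeq windows matched 7 of the 10 genes, 8 windows in all since Folr2 had 2. TGCTGA, the half-site of MAF-type factors, was found 150 and 44 bases before the start of Timd4 and 220 and 19 bases before the starts of Folr2, and in no other member (16.1% of all windows). In all 7 motifs were searched on both strands. AGGAAG, which can overlap GAGGAA, was in windows of 3 members (29.5% of all windows), GGTCA of 3 (35.2%) and TCACATG of 1 (3.5%), and TATAAA and CACGTG of 0 (12.4% and 6.02%). A match is a stretch of letters and shows no binding.

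The genes whose centred values lay nearest to each marker over the 24 mice were found by the root mean square difference. Nearest to Adgre1 were Pik3ap1, a signalling adaptor of leukocytes (0.17 log2), Ehd4 and Ptpn22. Nearest to Cd68 were Lgals3, which encodes galectin-3 (0.12), the lysosomal protease gene Lgmn, and Mpeg1, which encodes perforin-2. Nearest to Csf1r were the protease gene Ctsh (0.11), Coro1c and Atp6v0a1. Nearest to Itgam were Dock2, an exchange factor of leukocyte migration (0.14), B4galnt1 and Plk2. For Mrc1 they were Slc9a9 (0.12), Aoah, whose enzyme inactivates lipopolysaccharide, and Vamp7, and for Folr2 the complement gene C1qc (0.17), Tubb6 and Ece2. The nearest to Lyve1 was F13a1, a coagulation factor gene that resident macrophages express (0.26), then Alox5 and Chrac1. The nearest genes to Mertk were Hipk3 (0.18), Dido1 and Med13, to Timd4 Coq4 (0.14), Mrrf and C1qbp, and to Cd163 Chchd6 (0.27), Eif4ebp1 and Lrrc51. The distances are to be read against the spread of each marker over the 24 mice, an SD of 0.91 for Adgre1 and 0.29 for Timd4, since a gene that varies little lies near many others.

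Other genes of macrophages were described by lists, whose counts are to be read against the same shares of all genes. By diet 15.4% were higher and 15.6% lower in conventional mice, against 20.4% higher and 27.1% lower when germ-free. By status 8.77% were higher and 7.48% lower in conventional mice with lard, and 7.15% higher and 5.21% lower with fish oil. The interaction passed for 7.2%. Of 23 further pan-macrophage genes, 23 were higher with lard in conventional mice, with a median of 0.98. Examples are the transcription factor gene Spi1 (1.54), the IgG receptor gene Fcgr1 (1.40) and Mpeg1 (1.34). In germ-free mice 17 of 23 were higher and the other 6 did not pass (median 0.51), led by the complement gene C1qb (1.26), the lipopolysaccharide co-receptor gene Cd14 (1.24) and the integrin gene Itgb2 (1.17). By status with fish oil 10 of 23 were lower in conventional mice and the other 13 did not pass (median -0.43), among them the protease gene Ctss (-1.07), Mpeg1 (-1.04) and Itgb2 (-0.82). By status with lard 3 were higher and 1 lower, namely Aif1 (0.67), the fractalkine receptor gene Cx3cr1 (0.41), the inhibitory IgG receptor gene Fcgr2b (0.37) and Itgb2 (-0.66). Without lard-fed conventional mice 5 and 6 these counts were 3 higher and 9 lower. Without lard-fed germ-free mice 2, 4 and 5, which left 3 mice, 0 of 23 passed in limma and 4 had an unadjusted p under 0.05. Calls over all genes also rose in the former of these fits and fell in the latter.

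Of 18 further resident macrophage genes, 4 were higher and 1 lower with lard in conventional mice (median 0.22), and 5 higher, with the other 13 not past the threshold, in germ-free mice (median 0.07), counts not far above those shares. Siglec1, the sialoadhesin gene, rose by 0.91 and 0.90, and the lectin gene Clec10a rose by 0.82 in conventional mice, where the chemokine gene Ccl24 had a change of -0.57. Maf, which encodes a transcription factor of resident macrophages, rose by 0.45 in germ-free mice. Maf was lower in conventional than in germ-free mice with lard (-0.35), and its interaction passed (-0.37, limma adjusted p = 0.0182). No gene of the list had a lower interaction call with the hepatocyte covariate or without lard-fed germ-free mice 2, 4 and 5, so that call of Maf was lost in both. Cd209d, a lectin gene, and Cbr2 were higher in conventional mice with lard (1.28 and 0.65), and the platelet factor gene Pf4 and the growth factor gene Igf1 with fish oil (0.55 and 0.20). The calls of Pf4 and Igf1 were lost with repeated quantile normalization, where 0 of 18 passed in limma and 8 had an unadjusted p under 0.05, and with the covariate, where 0 passed and 3 had one.

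Around the receptors Csf1r and Mertk, 14 genes of the CSF1 and TAM receptor axis were measured, where TAM stands for the kinases Tyro3, Axl and Mertk. In conventional mice 8 were higher with lard and 1 lower. They include the GM-CSF receptor genes Csf2ra (1.26) and Csf2rb (0.81), and Mfge8, whose product bridges dying cells to phagocytes (0.83). In germ-free mice 4 were higher and 4 lower (1 and 2 with the hepatocyte covariate), and Axl, the TAM kinase related to Mertk, rose by 1.01 and Pros1, which encodes the ligand protein S, by 0.54, while Mertk had -0.28. Axl was lower in conventional mice with lard (-0.50). With fish oil 6 of 14 were lower in conventional mice (5.21% of all genes), among them Mfge8 (-0.68) and Csf2ra (-0.56), and the other 8 did not pass. The interaction passed for 3 (7.2% of all genes), Csf2rb (0.70), Csf3r (0.49) and the ligand gene Csf1 (0.42). It passed for 1 of the 14 when each array was centred on its median, and for 0 in limma without lard-fed germ-free mice 2, 4 and 5, where 5 had an unadjusted p under 0.05.

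Of 8 monocyte genes measured, 4 rose with lard in the conventional and 3 in the germ-free mice, and the others did not pass. Ccr2, the chemokine receptor by which monocytes leave the marrow and enter tissue, rose by 1.59 and 1.30, and S100a4 rose by 0.91 in conventional mice. Of 15 genes of lipid-associated macrophages, the cells that gather around dying adipocytes, 13 were higher with lard in conventional and 8 in germ-free mice, and the others did not pass. Trem2, their defining receptor gene, rose by 2.01 and 1.14. With fish oil 9 of 15 were lower in conventional mice (5.21% of all genes), such as Gpnmb (-1.50), and the other 6 did not pass. Of 14 genes of neutrophils, NK cells and dendritic cells, some of which also carry Itgam, 6 were higher and 3 lower with lard in conventional mice, and 1 higher and 5 lower in germ-free mice. Among these S100a8 rose by 1.34 in conventional mice, while S100a9 had -1.06. By status with lard 8 of 14 were higher in conventional mice and 0 lower (8.77% and 7.48% of all genes), among them S100a8 (1.02). Itgam there was at -0.39 and did not pass. The part of these cells in the change of Itgam was not tested.

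**Figure D4:**
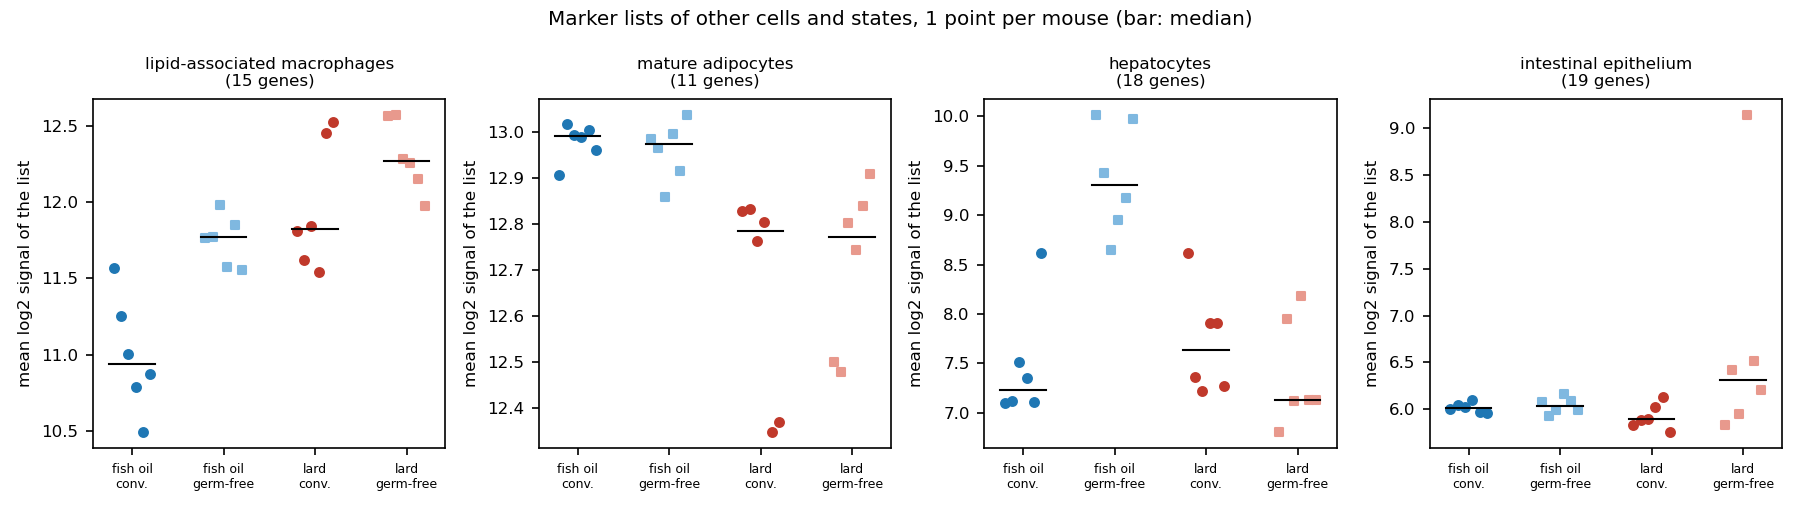
Mean log2 signal of the genes of 4 marker lists, 1 point per mouse and a bar at the group's median, with the 4 groups on the horizontal axis. The fish oil-fed germ-free mice are the highest for hepatocyte genes (8.65 to 10.02), and lard-fed germ-free mouse 4 is the highest for intestinal genes (9.14). Lard-fed conventional mice 5 and 6 are the lowest for adipocyte genes and the highest of their group for lipid-associated macrophage genes. Lard-fed germ-free mice 1 and 2 are the lowest of their group for adipocyte genes and its highest for lipid-associated macrophage genes.

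Liver holds macrophages of its own, Kupffer cells, which carry Timd4, Cd163, Folr2 and Adgre1. In the fish oil-fed germ-free mice 15 of 18 hepatocyte genes were higher than in conventional mice on the same diet (5.21% of all genes). There 15 of 18 were also higher than in germ-free mice with lard (27.1% of all genes). Alb, the albumin gene, ranged from 11.70 to 12.88 in that group against 6.40 to 11.32 in the other 18 mice. Clec4f, the gene that defines Kupffer cells, ranged from 6.21 to 6.76 over all 24 mice and from 6.39 to 6.67 in the fish oil-fed germ-free mice. The 9 genes of Kupffer cells and liver sinusoidal endothelium averaged 6.71 to 6.98 there and 6.58 to 7.06 in the other 18 mice. With the hepatocyte mean as a covariate 4 of the 10 markers passed by diet in germ-free mice in place of 9, namely Adgre1 (1.46), Csf1r (1.05), Itgam (0.98) and Timd4 (-0.48). That fit also called fewer of all genes, 2495 higher and 3145 lower in place of 4072 and 5396, and 3 of the 23 further pan-macrophage genes in place of 17 (median 0.23). Adipocyte genes moved opposite to the pan-macrophage genes: of 11, 9 were lower with lard in conventional mice and 1 higher, and 7 lower and 1 higher in germ-free mice. Blood endothelium had 2 of 10 higher with lard in conventional mice, near the 15.4% of all genes, and 4 of 10 lower in germ-free mice, where 27.1% of all genes were. The part of cell composition in the marker changes was not tested.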

How the data were processed

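Epididymal fat RNA of 24 mice, 250 ng each, was amplified, biotinylated and hybridised to one-colour Affymetrix arrays per the labels' protocols. The authors deposited log2 values for 35556 probe sets, computed by RMA (per the submitters' processing notes). This method subtracts background, equalises the quantiles of all arrays and summarises probes, which draws array distributions together and compresses low signals. Neither its version nor any scan or extraction batch is stated in the sources used here. Probe sets were named through a platform annotation table (21789 had 1 gene symbol, 1621 several and 12146 none), with symbols updated by Entrez ID in a GRCm38.p6 gene table, and the probe set with the highest mean was kept, which left 19938 genes. There were 3 probe sets with several symbols that hold a marker's symbol, and they were not used.

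A model with 4 group means was fitted to all 24 arrays in limma 3.58.1 (lmFit, eBayes; R 4.3.3). Every adjusted p is a two-sided limma value, Benjamini-Hochberg over all 19938 genes within 1 of 5 comparisons, with a threshold of 0.05. Mice were taken as replicates as labelled, and their number limits the precision. The interaction is the difference by diet in conventional mice minus that in germ-free mice. The markers, the 12 other gene lists and the alternatives were chosen with earlier results of these data known. Named genes are the 10 markers, for each the 3 nearest genes by root mean square difference of centred values, and up to 3 genes per list and comparison with the largest changes past the threshold. Cx3cr1, Aif1 and Itgb2 come from that rule, and Fcgr2b with lard falls outside it. Listed genes without a probe set of a single symbol are not analysed here. Alternatives were median centring, repeated quantile normalization, a filter at the 40th percentile of mean signal, the mean of a gene's probe sets, all probe sets, array weights, trend and robust priors, a fit to the compared groups alone, a block for mouse number, the hepatocyte mean as a covariate, and fits without single mice or the mice that stood apart. Promoter windows of 250 bases came from RefSeq (GRCm38.p6). The fit was tested on simulated data. Tables and figures were made with python 3.11.15, numpy 2.4.6, pandas 2.3.3 and matplotlib 3.10.9.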

Additional observations from a re-analysis of the deposited data

Results flagged for a closer look

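Within a group of 6 mice, a value was singled out when its gap to the nearest other mouse took up more of the group's range than Dixon's 95% critical value allows. Of 40 gene and group combinations 2 were singled out, and chance alone gives about 1 in 20. Both are of Lyve1. Fish oil-fed germ-free mouse 1 had 8.97, against 10.12 to 10.32 in the other 5 mice of its group, and lard-fed conventional mouse 6 had 9.26, against 10.35 to 10.67. The same 2 mice had the lowest Cd163 and Timd4 of their groups, at 8.48 and 6.58 in the first and 7.68 and 6.72 in the second. They differed in the pan-macrophage genes: Adgre1 was 9.92 in the first, the lowest of its group, and 12.43 in the second, the highest of its group. The cause was not tested.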

How the results depend on the processing

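Of the 10 markers, 8 passed by diet in conventional mice, 9 by diet in germ-free mice, 2 by status with lard, 3 by status with fish oil and 0 for the interaction. In conventional mice the count by diet was 5 without lard-fed conventional mice 5 and 6, and 5 to 8 on leaving out single mice. In germ-free mice it was 4 with the hepatocyte mean as a covariate, and 7 to 9 without single mice. By status with lard it was 5 with array weights, 6 without conventional mice 5 and 6, 0 with germ-free mice 2, 4 and 5 left out, which left 3 mice, 3 with repeated quantile normalization, with the filter on dim genes, with the replicate block and with the covariate, and 2 to 6 without single mice. Calls over all genes also rose with array weights and without conventional mice 5 and 6, and fell without germ-free mice 2, 4 and 5. By status with fish oil it was 1 with the covariate, 2 with the filter, which leaves out Timd4, and 2 to 3 without single mice. The interaction passed for 1 with the covariate, 2 without lard-fed conventional mice 5 and 6, and 0 to 1 without single mice. The resident minus pan-macrophage difference by diet kept its sign in every setting that gave a value, at -0.95 to -0.70 in conventional and -0.93 to -0.78 in germ-free mice without single mice, as did that by status, at 0.51 to 0.76 with lard and 0.53 to 0.67 with fish oil. Without lard-fed conventional mice 5 and 6 it was -0.58 by diet and 0.89 by status with lard. Its interaction, -0.03, was 0.0224 with the covariate, 0.26 without mice 5 and 6, and -0.11 to 0.14 without single mice. Mertk by diet in germ-free mice turned to 0.0572 with the covariate. The cause was not tested. With the replicate block, which removes differences between mouse numbers, 7 passed by diet in conventional mice, where Cd163 was lost (adjusted p = 0.0732), 3 by status with lard, and the other counts were 9, 3 and 0. The numbers do not pair the mice: of 36 pairs of same-numbered mice 9 deviated together with a correlation over 0.1 (median -0.0025), against a median of 0.0009 in 180 other pairs. Calls of Adgre1, Csf1r and Itgam by diet passed in every setting run, and those of Cd68 and Folr2 in conventional mice too. Timd4 had the lowest mean signal percentile of the markers, and low signals are compressed.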
